A study of Rattus norvegicus and Mus musculus with 251 samples.

Results

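The clustered protocadherin genes were taken from the mouse table of raw read counts as every gene whose symbol starts with Pcdha, Pcdhb or Pcdhg, followed by a digit or by a, b or c and a digit. The rule found 58 of the 46078 gene identifiers in that table. These comprised 12 alternate Pcdha genes, 22 Pcdhb genes, 12 Pcdhga genes, 7 Pcdhgb genes and 5 C-type genes (Pcdhac1, Pcdhac2, Pcdhgc3, Pcdhgc4 and Pcdhgc5). The symbol Pcdha11 was carried by 2 identifiers, called upstream and downstream here by their position, so the 58 genes had 57 symbols.

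Clustered protocadherins are cadherin-like proteins of the neuronal surface. Each neuron transcribes a small set of them, their proteins bind only matching partners on the opposing membrane, and this recognition underlies self-avoidance between branches of the same neuron and the spacing and survival of neurons. The alternate isoforms are chosen by stochastic promoter choice, which involves DNA methylation, CTCF and cohesin looping between a promoter and distant enhancers. C-type isoforms are expressed more uniformly and by other rules. Pcdhgc4 is known for its role in interneuron survival, Pcdhac2 for the tiling of serotonergic axons and Pcdhgc5 for expression late in development.

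The series held 251 libraries, of which the 62 mouse libraries were used. In male and female mice labelled C57BL6J, RNA came from 0.5 mm punches of prefrontal cortex (PFC) in 30 libraries and of nucleus accumbens (NAc) in 32, and total RNA was sequenced as read pairs of 75 bases. Mice drank a saline solution (6 PFC and 7 NAc libraries) or a morphine solution, and the morphine groups were labelled chronic morphine (8 and 8), morphine plus 24 h (9 and 9) and morphine plus 2 weeks (7 and 8). Every fit used both sexes and all 4 treatments, and the labels used here give neither the morphine dose, the length of drinking, nor the ages. Numbered libraries are not said to come from separate animals, so p-values measure the spread between these samples. The labels call the cell type neuron, yet glial genes were abundant, with a median of 2757 CPM (counts scaled to library size) of the myelin gene Mbp in PFC and 3520.3 in NAc, and of 90.1 and 69 CPM of the astrocyte gene Aqp4. The libraries thus held tissue RNA, in which fewer cells of a type and less RNA per cell cannot be told apart.

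Reads counted to genes had a median of 29999922 per PFC library and 32159518 per NAc library, and the lowest NAc total was 22387525. PFC library 10, labelled female and morphine plus 2 weeks, held 5182601 counts against 24936879 or more in the other 29. In that library 21.1% of the read pairs did not align, 10563 genes were detected, and 40 of the 58 protocadherin genes were at 0. Of the 53 protocadherin genes above 0 in every other PFC library, 35 were at 0 there (66%), against 32.5% of all such genes. Among genes of similar level (3.55 to 10.8 CPM) the shares at 0 were 60.7% for the protocadherins and 55.1% for all genes. PFC library 20 (morphine plus 24 h) had the second lowest summed protocadherin level in PFC, 359 CPM. NAc libraries 6 (saline) and 25 (chronic morphine) had the least of the striatal markers, with a Drd1 level down to 8.94 CPM against an NAc median of 123.7. The PFC and NAc libraries numbered 27, labelled female and chronic morphine, were low in Xist and high in Y-linked genes, against their sex label. Counts of calls between the regions are given with and without these libraries.

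All 58 genes lie on the plus strand of chromosome 18 in GRCm38, from 36930184 to 37841873, a span of 912 kb, in the order Pcdha, Pcdhb, Pcdhg (GENCODE M21 annotation). Of these, 57 are annotated as protein-coding and Pcdhgb8 as a polymorphic pseudogene. Each Pcdha and Pcdhg gene has a variable first exon of its own, spliced to constant exons that the whole cluster shares, whereas Pcdhb genes have no shared constant exons. Accordingly 20 Pcdhb genes shared no exon base with another gene on their strand, while 33.2% to 68.5% of the exon bases of Pcdha and Pcdhg genes were their own, and only 494 bases (8.56%) of Pcdha4 were. Levels are therefore compared between genes as CPM per kilobase of these unique bases. Whether counting used the read strand is not given in the sources used here. For 13 genes some unique bases lay under a gene on the other strand, so that their counts may include its reads. The share was over 50% in 4 genes (downstream Pcdha11, Pcdhb12, Pcdhga10 and Pcdhga11) and 46.1% in Pcdhgc3. Paralogues of this family are also similar in sequence, and reads aligned to several places were not counted to genes.

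The C-type genes Pcdhgc3, Pcdhgc5 and Pcdhac2 had the highest levels per unique kilobase in both regions. Pcdhgc3 (37806364 to 37841873) had a median of 29.9 CPM per unique kilobase in PFC and 25.8 in NAc. Pcdhgc5 (37819513 to 37841873) followed with 22.7 and 20.3, and Pcdhac2 (37143503 to 37187657) with 13.8 and 10.6. High levels were not shared by all 5 C-type genes. The lowest, Pcdhac1, had 1.62 and 0.692, where the medians over alternate Pcdha genes were 1.07 and 0.848. Per library, the level of Pcdhgc3 was 19.5 CPM at the lowest, 100.996 at the median and 144.2 at the highest in PFC, and 64.4, 87.2 and 105.5 in NAc. Pcdhgc5 ranged from 20.2 to 162.008 CPM in PFC around a median of 104.5, and from 27.2 to 148.5 in NAc around a median of 93.3, so the first and second genes in this order overlapped widely in both regions. Pcdhac2 alone took 50.5% of the Pcdha-cluster counts in PFC and 55.1% in NAc, as medians over libraries. Within the Pcdhg cluster, Pcdhgc3 took 24.6% and 20.4% and Pcdhgc5 26.5% and 21.3%.

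Below them the medians of the alternate genes ran from 0 to 8.08 CPM per unique kilobase in PFC. Pcdhga11 was the highest of them in PFC, and Pcdhga6 in NAc with 8.07, where Pcdhga11 had 7.73. In the other subfamilies the leading genes by mean level over regions were Pcdhgb6 with medians of 5.27 in PFC and 7.70 in NAc, Pcdhb9 with 5.26 and 6.09, and Pcdha12 with 3.76 and 1.86. Pcdhb1 was the lowest in PFC, with a median of 0, and stood at 0.273 CPM per unique kilobase in NAc. Pcdha8 (0.0858 and 0.111) and the pseudogene Pcdhgb8 (0.223 and 0.270) were also low, as was Pcdha4 (0.135 and 0.156), the 1 gene that no main fit tested because of its few counts. The plot of levels along the locus shows that neighbours of 1 subfamily overlapped in range, while Pcdhac2, Pcdhgc3 and Pcdhgc5 stood above the alternate genes of their clusters at the median.

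**Figure D1:**
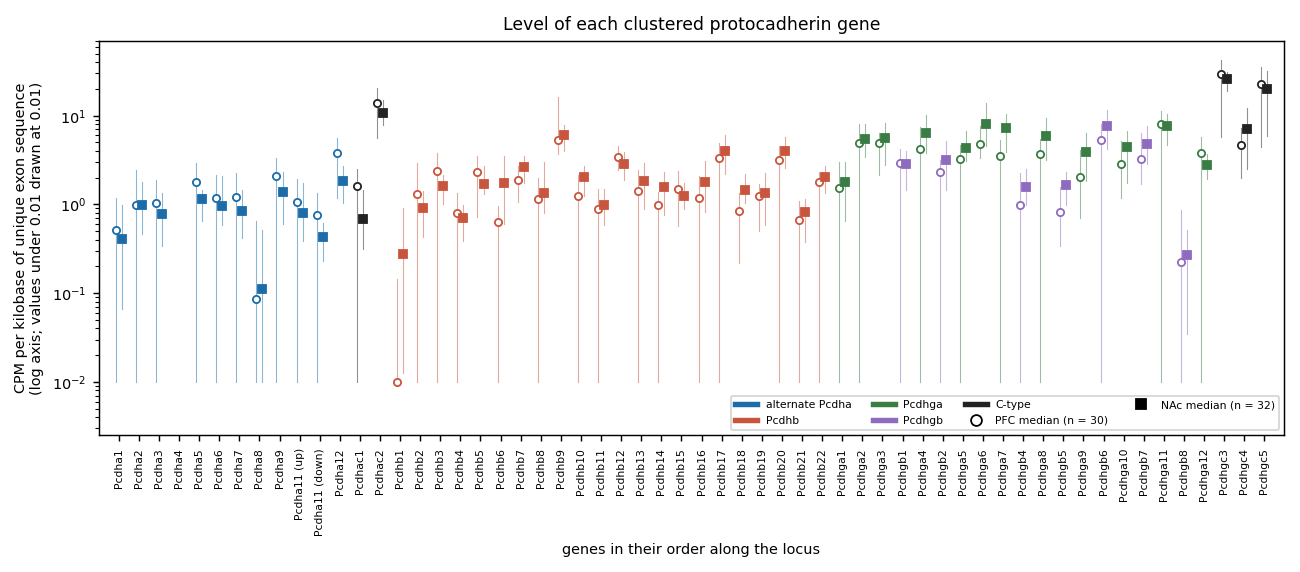
Level of each gene in CPM per kilobase of unique exon sequence (log axis), in order along the locus and coloured by subfamily; open circles are PFC medians (30 libraries), filled squares NAc medians (32 libraries) and lines run from the lowest to the highest library. Pcdhgc3, Pcdhgc5 and Pcdhac2 are highest in both regions, many PFC lines reach the floor because 40 genes were at 0 in library 10, and Pcdha4 is not drawn since it has only 494 unique bases.

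Summed over the 58 genes, the clusters held overlapping amounts of RNA in the regions, with a median of 644 CPM in PFC (237 to 870) and 672 CPM in NAc (470 to 883). Their make-up differed. Alternate Pcdha genes summed to a median of 38.6 CPM in PFC (10.3 to 49.4) and 24.8 CPM in NAc (18.98 to 31.8), and 0 of 32 NAc libraries lay above the PFC median. Pcdhgb genes went the other way, with 43.6 CPM in PFC (13.2 to 63.5) and 62.8 CPM in NAc (36.3 to 84.1), and 30 of 32 NAc libraries lay above the PFC median. Pcdhga genes summed to 134.2 and 169.2 CPM, Pcdhb genes to 146.3 and 179.9 CPM, and C-type genes to 266 and 241 CPM. The ratio of the NAc mean to the PFC mean was 0.668 for alternate Pcdha, 0.888 for C-type, 1.19 for Pcdhb, 1.35 for Pcdhga and 1.52 for Pcdhgb genes, and without PFC library 10 it was 0.652, 0.867, 1.17, 1.32 and 1.48. As shares of all protocadherin counts, alternate Pcdha genes made up a median of 5.98% in PFC and 3.61% in NAc, C-type genes 42.2% and 35.3%, Pcdhb genes 23.8% and 26.2%, Pcdhga genes 20.6% and 25.7%, and Pcdhgb genes 6.74% and 9.44%. These sums are descriptions without a test.

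**Figure D2:**
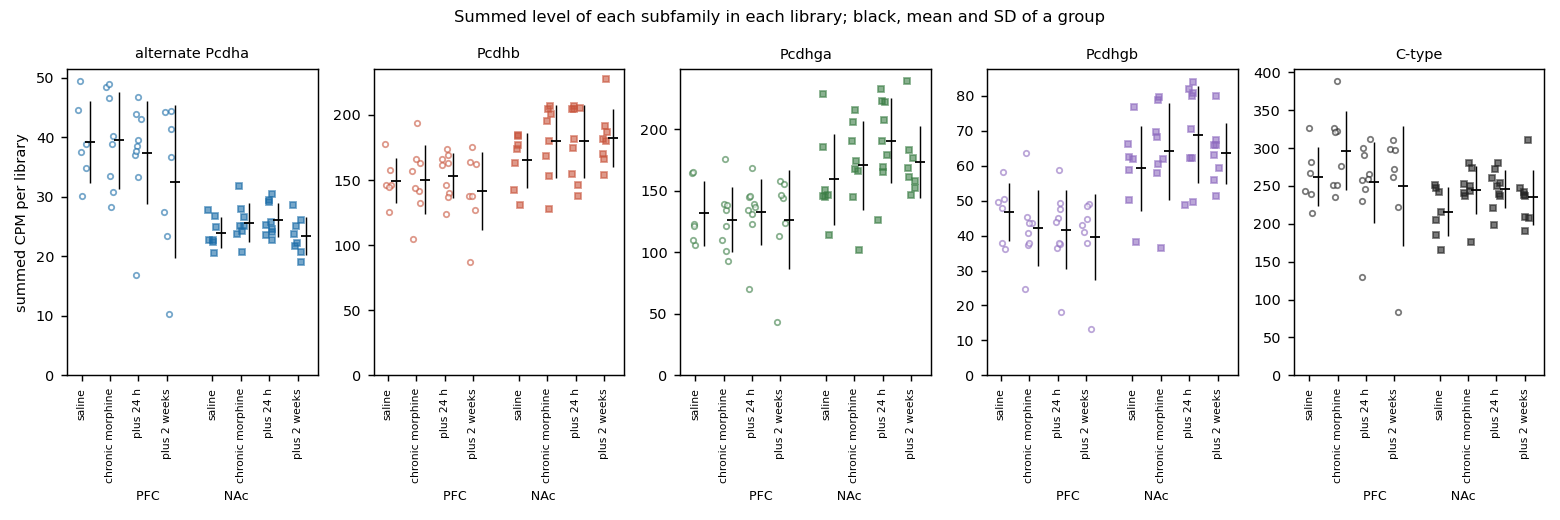
Summed CPM of each subfamily in each library, by region and treatment; circles are PFC libraries, squares NAc libraries, and black marks give the mean and SD of a group. In saline libraries the alternate Pcdha sums of the regions do not overlap (30.1 to 49.4 CPM in PFC, 20.6 to 27.7 in NAc), and the lowest PFC points at 24 h and 2 weeks are libraries 20 and 10.

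The regions were compared gene by gene over all treatments and both sexes. Of 57 genes tested, 28 were higher and 16 lower in NAc than in PFC (edgeR quasi-likelihood test, Benjamini-Hochberg adjusted p under 0.05 over 19266 genes). The regions differed broadly, since 66.2% of all genes tested passed that threshold, 36.5% as higher and 29.7% as lower. The count of protocadherin genes that differed is therefore read against that background, and the text turns to which genes went which way. Their median log2 fold change was 0.23, against 0.07 for all genes. Without PFC libraries 10 and 20, 27 were higher and 17 lower, where 37.5% of all genes were higher and 30.4% lower. Without the pair numbered 27 the counts were 24 and 15, beside 36.2% and 27.9% of all genes.

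Direction differed between the subfamilies. Of 11 alternate Pcdha genes tested, 7 were lower in NAc, 0 higher and 4 did not pass, with a median log2 fold change of -0.49. Of 22 Pcdhb genes, 14 were higher and 5 lower (median 0.32). Among 12 Pcdhga genes 8 were higher and 1, Pcdhga12, was lower (median 0.58), and among 7 Pcdhgb genes 5 were higher and 0 lower (median 0.61). The C-type genes divided, with Pcdhgc4 higher, Pcdhac1, Pcdhac2 and Pcdhgc3 lower, and Pcdhgc5 not passing. Without PFC libraries 10 and 20, Pcdhb15 (lower), Pcdhb19 and Pcdhga3 (higher) no longer passed, and Pcdha6 and Pcdhgc5 (lower) and Pcdhb9 (higher) did.

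The calls also fell into stretches along the locus, which were set after the values were seen. The 12 consecutive genes from Pcdhga4 to Pcdhgb7 were each higher in NAc, by log2 fold changes of 0.58 to 1.01. Of the 4 genes before them (Pcdhga1, Pcdhga2, Pcdhga3 and Pcdhgb1), 1, Pcdhga3, was higher, and of the 3 genes after them (Pcdhga11, Pcdhgb8 and Pcdhga12), 0 were higher and 1 was lower. In the Pcdhb cluster, 3 of the 4 genes from Pcdhb2 to Pcdhb5 were lower in NAc and 0 higher, whereas 13 of the 17 genes from Pcdhb6 to Pcdhb22 were higher and 2 lower. Without PFC libraries 10 and 20 the 12 genes from Pcdhga4 to Pcdhgb7 were again higher, 0 of the 4 before them passed, and the Pcdhb6 to Pcdhb22 counts were 13 and 1. The call of Pcdhga3 was also lost with the replicate block, without the low-count filter and in saline libraries alone. In saline libraries alone, Pcdhga4, Pcdhgb2, Pcdhga8, Pcdhgb6 and Pcdhgb7 within the 12-gene stretch lost their calls too. So did Pcdhb2, Pcdhb7, Pcdhb8, Pcdhb12 to Pcdhb17, Pcdhb19, Pcdhb21 and Pcdhb22 in the Pcdhb cluster. That fit has fewer libraries, and 43 of the 44 genes called with all libraries kept their sign in it.

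**Figure D3:**
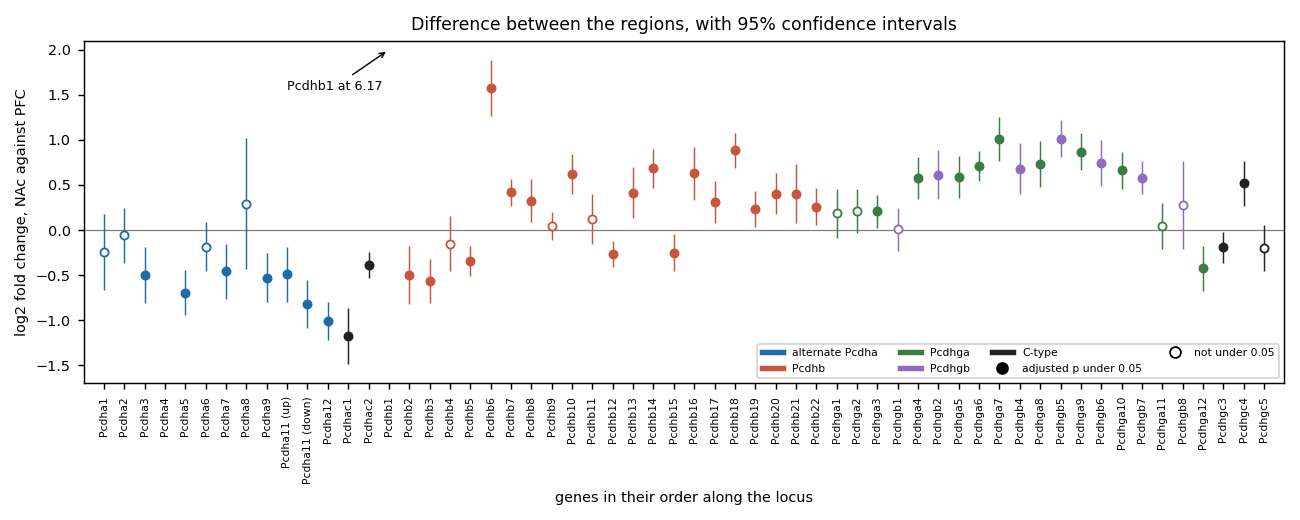
Log2 fold change of NAc against PFC for the 57 tested genes in order along the locus, with 95% confidence intervals; filled points have an edgeR adjusted p under 0.05. Alternate Pcdha genes lie mostly below 0, the 12 genes from Pcdhga4 to Pcdhgb7 all lie above 0, and Pcdhb1 is off the scale at 6.17.

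Pcdhb1 (37264938 to 37267525), the first gene of the Pcdhb cluster, was nearly absent from PFC, where 26 of 30 libraries had no read and the other 4 held 17 reads in all. All 32 NAc libraries had reads, 828 in all, and their level ran from 0.0324 CPM through a median of 0.708 to 2.37. The gene failed the low-count filter in the fit of PFC alone, so it entered the test between regions through its NAc counts. The fitted difference was 6.17 ± 0.50 on the log2 scale (SE; edgeR adjusted p = 2.41e-14). It depends on how the many zeros are handled, and neither its size nor its p is read as support. Pcdhb1 is included in the counts of 28 higher genes and 14 higher Pcdhb genes. NAc levels exceeded every PFC level in 23 of 32 libraries.

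Pcdhb6 (37333921 to 37337674) had a median of 2.38 CPM in PFC (0 to 3.62) and 6.57 CPM in NAc (2.25 to 13.2). Of the NAc libraries, 30 of 32 lay above every PFC library, and the log2 fold change was 1.58 ± 0.15 (SE; edgeR adjusted p = 4.07e-13). Pcdhga7 (37714764 to 37841873) stood at 10.9 CPM in PFC (0 to 16.3) and 22.4 CPM in NAc (11.9 to 32.6), a log2 fold change of 1.01 ± 0.12 (edgeR adjusted p = 2.74e-10). The 0 in both genes was PFC library 10, and the lowest PFC values without it were 0.374 CPM for Pcdhb6 and 5.36 CPM for Pcdhga7. Pcdhgb5 (37731009 to 37841873) had 3.80 CPM in PFC (1.59 to 7.34) and 7.64 CPM in NAc (4.56 to 10.7), a log2 fold change of 1.01 ± 0.10 (edgeR adjusted p = 1.23e-12). Pcdhb18 (37489465 to 37494505) had 4.21 CPM in PFC (1.10 to 6.70) and 7.27 CPM in NAc (5.25 to 11.2), with a log2 fold change of 0.88 ± 0.10 (edgeR adjusted p = 1.33e-11). For Pcdhb18, Pcdhgb5 and Pcdhga7 the ranges of the regions overlapped, yet every NAc library lay above the PFC median.

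Among the genes lower in NAc, Pcdhac1 (37090013 to 37187657), the C-type gene next to the alternate Pcdha array, had the largest difference. Its level was 4.14 CPM in PFC (0 to 6.48, or from 1.23 without library 10) and 1.77 CPM in NAc (0.802 to 3.71). The log2 fold change was -1.18 ± 0.16 (SE; edgeR adjusted p = 3.05e-09), and all 32 NAc libraries lay below the PFC median. Pcdha12 (37020149 to 37187657), the last alternate gene of its cluster, had 9.31 CPM in PFC (2.94 to 13.97) and 4.59 CPM in NAc (2.56 to 6.73), a log2 fold change of -1.01 ± 0.11 (edgeR adjusted p = 2.53e-12). Downstream Pcdha11 (37010712 to 37187657) stood at 3.50 CPM in PFC (0 to 6.26, or from 1.78 without library 10) and 1.98 CPM in NAc (1.07 to 2.87), with -0.82 ± 0.13 on the log2 scale (edgeR adjusted p = 3.14e-07). For each of these genes every NAc library was below the PFC median, although the ranges overlapped.

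Pcdha5 (36960440 to 37187657) had 4.24 CPM in PFC (0 to 6.85, or from 1.551 without library 10) and 2.69 CPM in NAc (1.52 to 3.41), a log2 fold change of -0.70 ± 0.12 (edgeR adjusted p = 2.58e-06). Pcdhb3 (37300799 to 37304585) had 8.95 CPM in PFC (0 to 14.2, or from 6.43 without it) and 6.06 CPM in NAc (3.84 to 8.24), with -0.56 ± 0.12 (edgeR adjusted p = 5.31e-05). Again all 32 NAc libraries lay below the PFC median, and for Pcdhb3 22 of them lay below every PFC library other than library 10.

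The remaining C-type genes moved less. Pcdhac2 had 41.9 CPM in PFC (17.1 to 62.1) and 32.2 CPM in NAc (23.8 to 45.3), and its log2 fold change was -0.39 ± 0.07 (SE; edgeR adjusted p = 4.05e-06). Pcdhgc4 (37815079 to 37841873) went the other way, with 16.1 CPM in PFC (6.98 to 25.1) and 24.8 CPM in NAc (8.61 to 42.4), a log2 fold change of 0.52 ± 0.13 (edgeR adjusted p = 0.000318). The NAc range of Pcdhgc4 enclosed most of the PFC range, and 7 of 32 NAc libraries lay below the PFC median. Pcdhgc3 changed by -0.19 ± 0.08 (edgeR adjusted p = 0.0407), a call that was lost with DESeq2, with other size factors, without the low-count filter and without NAc libraries 6 and 25. Pcdhgc5 had -0.20 ± 0.13 (edgeR adjusted p = 0.165).

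NAc libraries differed in the level of striatal marker genes. A striatal marker score, the mean log2 CPM of Drd1, Drd2, Adora2a, Ppp1r1b and Rgs9, ranged from 3.97 to 8.90 in NAc and from -1.84 to 3.34 in PFC. It was used as a regressor in NAc, with treatment and sex in the model, after the data had been seen. Of 57 protocadherin genes, 30 rose with the score, 2 fell and 25 did not pass (edgeR adjusted p under 0.05), while 42.7% of all genes tested passed, 20.4% rising and 22.3% falling. The median slope was 0.13 log2 units per unit of score for the protocadherins and -0.00 for all genes. By subfamily, 13 of 22 Pcdhb, 10 of 12 Pcdhga and 5 of 7 Pcdhgb genes rose, but only 1 of 11 alternate Pcdha genes and 1 of 5 C-type genes did.

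Pcdhgc5, named with the other slopes below after its value was seen, had a slope of 0.48 ± 0.04 (SE; edgeR adjusted p = 2.18e-10), although its level did not pass the test between regions with all libraries. Its smallest NAc levels, 27.2 and 29.8 CPM, came from libraries 25 and 6, which had the lowest scores. Pcdhb1 had a slope of 0.77 ± 0.16, Pcdhb6 of 0.38 ± 0.06, Pcdhga10 of 0.32 ± 0.03 and Pcdhb13 of 0.31 ± 0.05, all past the threshold. Pcdhgc4 fell, with a slope of -0.37 ± 0.06 (edgeR adjusted p = 2.07e-05), as did Pcdha7 with -0.24 ± 0.08 (edgeR adjusted p = 0.0134). Across both tests, 23 genes were higher in NAc and rose with the score. Pcdhgc4 was higher in NAc and fell with it, and Pcdha12 and Pcdhb5 were lower in NAc and rose with it. No matching share of all genes is given for these joint counts. Both tests used the same NAc libraries, and all 5 genes of the score were themselves higher in NAc, so the tests are not independent.

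Some markers of other cells moved with the same score. All 5 oligodendrocyte markers, 4 of 5 astrocyte markers, both precursor markers and all 4 hypothalamic markers (Avp, Oxt, Pmch and Hcrt) fell with it. Of the 5 GABA neuron markers (Gad1, Gad2, Pvalb, Sst and Vip), 3 fell, as did 2 of 5 cortical projection neuron markers. Of 4 general neuron markers 1 rose and 1 fell, and 1 of 4 choroid plexus markers rose. For microglial markers 0 of 4 passed, and for endothelial and mural markers 0 of 4. Summed hypothalamic markers reached 1521 CPM in NAc library 25 against an NAc median of 17.1. Their part in the slopes was not tested. Without NAc libraries 6 and 25, the farthest from the median score, 26 protocadherin genes rose and 1 fell, where 18.9% of all genes rose and 18% fell.

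**Figure D4:**
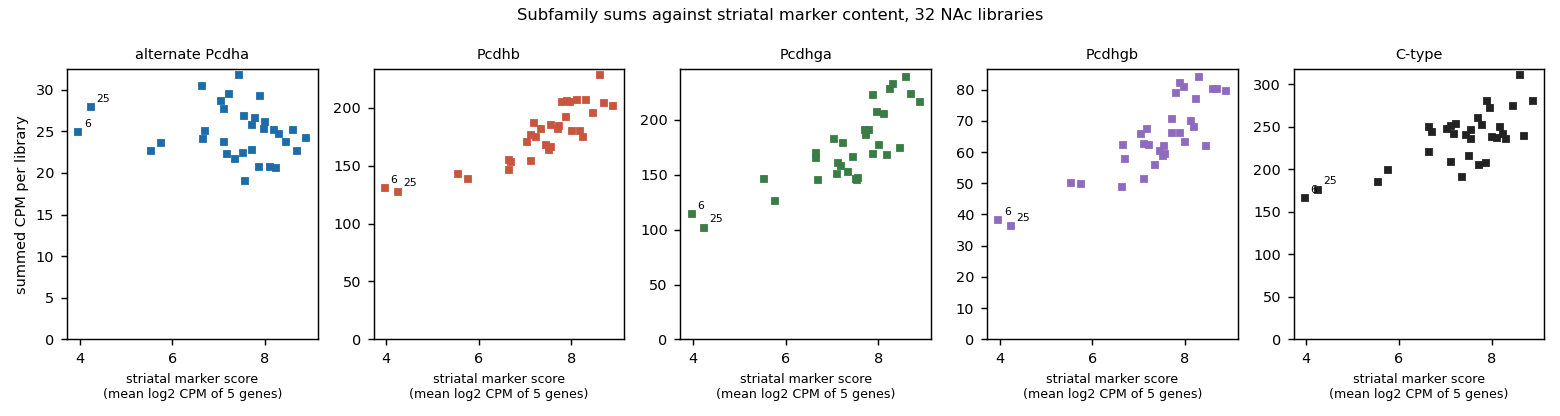
Summed CPM of each subfamily in the 32 NAc libraries against the striatal marker score (mean log2 CPM of 5 genes); libraries 6 and 25 are marked. Pcdhb, Pcdhga, Pcdhgb and C-type sums are lowest in the libraries with the least striatal marker content, and alternate Pcdha sums show no such order.

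The next comparisons asked whether protocadherin expression differed from saline during morphine drinking, 24 h after it or 2 weeks after it. In PFC 0 of 56 genes passed in each of the 3 comparisons, where 0.417% of all genes passed under chronic morphine, 0.0779% at 24 h and 0.00557% at 2 weeks. At an unadjusted p under 0.05 edgeR also found 0, 0 and 0 genes, and DESeq2 found 1, 0 and 3, none past its adjusted threshold. Among all genes 7.91%, 3.01% and 5.04% were under that unadjusted p. The 3 comparisons share the 6 saline libraries. Median log2 fold changes of the protocadherins were -0.06, 0.01 and -0.18, against -0.06, 0.07 and 0.01 without libraries 10 and 20. Without that pair 10 genes had an unadjusted p under 0.05 under chronic morphine, against 14.4% of all genes, and 0 passed after adjustment.

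The precision set by the spread between PFC libraries was moderate. The 95% confidence interval lay within a log2 fold change of ±1 for 43 of 56 genes under chronic morphine, 47 at 24 h and 39 at 2 weeks, and within ±0.5 for 2, 7 and 4. For the remaining genes the interval reached a 2-fold change, so a change of that size was not excluded. Pcdha1 had the smallest p under chronic morphine, with 1.497 CPM (0.915 to 2.96) against 1.01 CPM in saline (0 to 1.78). Its log2 fold change was 1.01 ± 0.51 (edgeR adjusted p = 0.647), and the groups overlapped. Pcdhga9 had 5.84 CPM (2.44 to 10.6) against 7.10 CPM in saline (5.40 to 9.47), a log2 fold change of -0.42 ± 0.23 (edgeR adjusted p = 0.713).

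At 24 h the smallest p in PFC belonged to Pcdhb18, with 3.81 CPM (1.77 to 5.92) against 4.20 CPM in saline (2.22 to 5.69). The log2 fold change was -0.38 ± 0.25 (edgeR adjusted p = 1), and that of Pcdhga9 was 0.28 ± 0.22. At 2 weeks Pcdhga10 had 8.85 CPM (8.01 to 13.6) against 7.12 CPM in saline (5.21 to 8.33), a log2 fold change of 0.47 ± 0.24 (edgeR adjusted p = 0.947), with library 10 the highest. Pcdhb9 rested on that library altogether. It had 49.9 CPM there and at most 21.1 CPM in the other PFC libraries at 2 weeks, and its log2 fold change of 0.39 ± 0.21 became -0.03 without it.

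In NAc 0 of 57 genes passed in each comparison with saline. Of all genes 1.69% passed under chronic morphine, 0.163% at 24 h and 0.00544% at 2 weeks. At an unadjusted p under 0.05 edgeR found 5, 9 and 2 protocadherin genes and DESeq2 7, 10 and 2, and of all genes 15.2%, 12.1% and 6.44% were under it in edgeR. Median log2 fold changes were 0.07, 0.17 and 0.07. At 24 h 45 of 57 genes had a positive sign, against 48.3% of all genes, and the median was 0.10 without libraries 6 and 25. The median striatal score was 7.52 in saline, 7.96 under chronic morphine, 7.72 at 24 h and 7.46 at 2 weeks, and library 6, with the lowest NAc score (3.97), is a saline library. With the score as a covariate the medians were 0.01, 0.08 and -0.04, and 1, 0 and 0 genes passed.

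With all libraries kept, precision was better in NAc than in PFC. Part of that gap came with PFC library 10. The median spread between libraries, as edgeR estimates it, was 36.05% in PFC with it, 25.9% without it and 21.9% in NAc. Intervals without library 10 are not given here. The 95% confidence interval lay within ±1 for 53, 55 and 55 of 57 genes and within ±0.5 for 29, 27 and 29. The median SE of the log2 fold change was 0.17, 0.16 and 0.17, against 0.33, 0.32 and 0.34 in PFC.

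Pcdhac2 came closest to the threshold. It had 25.98 CPM in saline NAc (23.8 to 34.1), 35.8 CPM under chronic morphine (30.6 to 45.3), 33.6 CPM at 24 h (30.5 to 40.9) and 31.3 CPM at 2 weeks (24.9 to 40.1). Levels under chronic morphine were higher at the median, and the ranges overlapped. The log2 fold change under chronic morphine was 0.36 ± 0.10 (95% confidence interval 0.15 to 0.58; edgeR adjusted p = 0.0693). It passed with DESeq2 (adjusted p = 0.0238), where 3.76% of all genes passed, and with the striatal score as a covariate (edgeR adjusted p = 0.0495), where 3.69% did. It also passed without NAc library 26 (edgeR adjusted p = 0.0486) or 32 (0.0477), and without library 27 the adjusted p was 0.178. Without libraries 6 and 25 the log2 fold change was 0.29 (edgeR adjusted p = 0.185).

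Pcdha9 (36997880 to 37187657) had 2.89 CPM in saline NAc (2.44 to 3.65) and 3.78 CPM under chronic morphine (3.61 to 5.82). Only the edges of these groups overlapped, and the log2 fold change was 0.54 ± 0.19 (edgeR adjusted p = 0.143). At 24 h Pcdhga7 had 28.6 CPM (16.6 to 32.6) against 16.9 CPM in saline (12.2 to 32.6), a log2 fold change of 0.43 ± 0.14 (edgeR adjusted p = 0.220). Pcdhga5 had 14.5 CPM (9.41 to 16.9) against 9.10 CPM (7.81 to 17.1), with 0.38 ± 0.13 (edgeR adjusted p = 0.228). For both the highest saline library reached the top of the 24 h group. At 2 weeks Pcdhb19 had 10.5 CPM (8.45 to 14.98) against 8.56 CPM (4.21 to 10.5) and a log2 fold change of 0.43 ± 0.18 (edgeR adjusted p = 0.651), and Pcdhb22 had 0.23 ± 0.10 (edgeR adjusted p = 0.718).

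**Figure D5:**
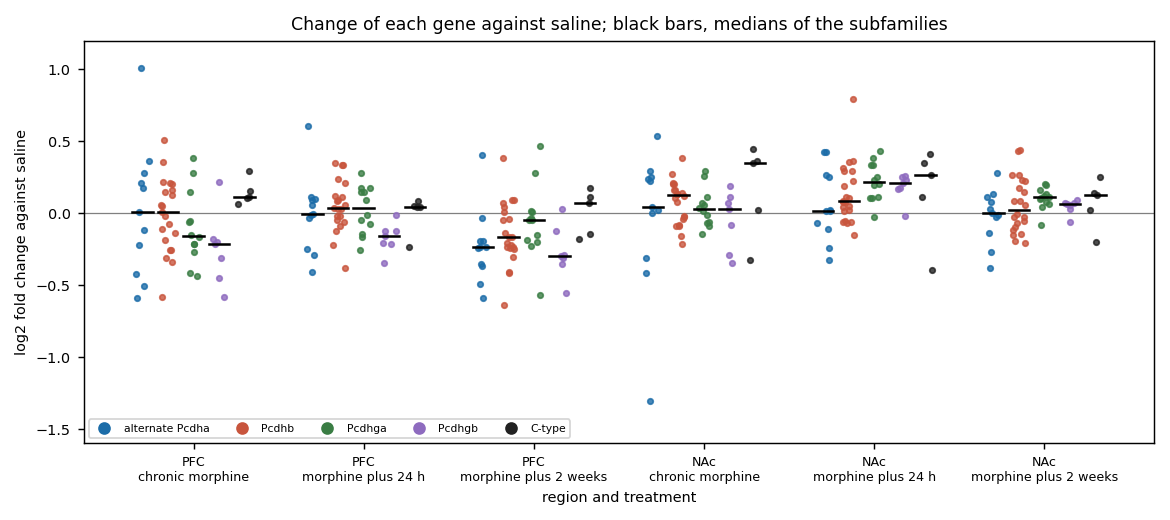
Log2 fold change against saline of each tested gene in the 6 comparisons, coloured by subfamily, with black bars at subfamily medians. None of the points passed the edgeR adjusted threshold, and the 3 comparisons of a region share its saline libraries.

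Whether the difference from saline differed between the regions was tested directly. In that test 0 of 57 genes passed in edgeR (0.0363% of all genes did). There 1 gene had an unadjusted p under 0.05, against 4.78% of all genes, and DESeq2 called 0 with 1 under that p. The 1 gene was Pcdhb18 (edgeR adjusted p = 0.986), whose NAc minus PFC difference in log2 fold change was -0.09 under chronic morphine, 0.62 at 24 h and 0.11 at 2 weeks.

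Males and females were compared within each region by their labels. In PFC 0 of 56 genes passed in edgeR, where 0.0334% of all genes did, and in NAc 0 of 57, where 0.0598% did. At an unadjusted p under 0.05 there were 5 genes in PFC and 6 in NAc in edgeR, and 11 and 7 in DESeq2, which also called 0. Of all genes 4.54% in PFC and 4.79% in NAc were under that p in edgeR, and 5.56% and 5.43% in DESeq2. In PFC 46 of 56 genes had a positive male minus female sign, against 57.5% of all genes, and the median log2 fold change was 0.15 (0.03 for all genes). Without libraries 10 and 20 it was 0.07. The smallest p belonged to Pcdhb18 in PFC (0.53 ± 0.18; edgeR adjusted p = 0.946) and to Pcdha6 in NAc (0.47 ± 0.13; edgeR adjusted p = 0.852). Leaving out library 27 left each count at 0.

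The spread between PFC libraries rested in large part on library 10. The median biological coefficient of variation, the spread beyond counting noise as edgeR estimates it, of the protocadherin genes was 36.05% in PFC with that library, 25.9% without it and 21.9% in NAc. The median of the trend for genes of their level was 33.3%, 25.05% and 25.3%. In PFC 57.1% of the genes lay above the trend for their level, against 38.3% of all genes (57.1% against 37.2% without library 10), and in NAc 31.6% against 30.1%. As a description, deviations from the group means were correlated between pairs of protocadherin genes at a median r of 0.679 within a cluster and 0.685 between clusters over 30 PFC libraries, and with other genes at 0.233. Without PFC library 10 these were 0.468, 0.391 and 0.00655 over 29 libraries. In NAc they were 0.378, 0.170 and -0.000534 over 32 libraries, and 0.281, 0.137 and -0.00222 without libraries 6 and 25. Pairs share library, depth and tissue content.

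Genes related to the clusters were examined from lists. Among 12 non-clustered protocadherins, which are single genes outside the clusters, 7 were higher and 3 lower in NAc than in PFC, led by Pcdh17 (1.36 ± 0.08), Pcdh11x (1.25 ± 0.09) and Pcdh10 (0.75 ± 0.05), all on the log2 scale. Of 24 regulators of chromatin and promoter choice, 12 were higher and 4 lower. The cohesin subunit gene Smc3 had 0.43 ± 0.04, the cohesin-associated Pds5b 0.74 ± 0.06 and the zinc finger gene Wiz -0.47 ± 0.05. Of 21 partners and signalling genes, 6 were higher and 8 lower, including the guidance receptor Robo1 (1.58 ± 0.08), the WAVE complex gene Cyfip2 (-0.86 ± 0.05) and Ptk2 (-0.79 ± 0.06), which encodes a focal adhesion kinase that protocadherins inhibit. Each of these shares stands beside the 66.2% of all genes that differed between the regions.

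With morphine, 1 gene of these lists passed. Of all genes tested in NAc, 1.69% passed under chronic morphine and 0.163% at 24 h. Adam10, a protease that cleaves protocadherins, rose in NAc by 0.18 ± 0.04 on the log2 scale under chronic morphine (edgeR adjusted p = 0.0266) and by 0.20 ± 0.04 at 24 h (edgeR adjusted p = 0.0382). With the striatal score 14 chromatin regulators rose and 1 fell, 13 partners rose and 2 fell, and 2 non-clustered protocadherins rose and 8 fell, where 20.4% of all genes rose and 22.3% fell. Ptk2b had a slope of 0.76 ± 0.04, Wasf1 of 0.45 ± 0.04 and Abi2 of 0.20 ± 0.02. Among the chromatin regulators Ehmt2 had a slope of 0.11 ± 0.02, Atf7ip of 0.12 ± 0.02 and Tet3 of 0.15 ± 0.03, and among the non-clustered genes Pcdh7 had -0.20 ± 0.03, Pcdh18 -0.22 ± 0.04 and Pcdh20 -0.47 ± 0.08.

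Marker sums place these results among the cells of the punches. Striatal projection neuron markers summed to medians of 114.1 CPM in PFC (80.05 to 241.1) and 1637 CPM in NAc (107.1 to 3949), and cortical projection neuron markers to 2709 CPM in PFC (1697 to 4234) and 21.7 CPM in NAc (6.08 to 649.0). Between regions 4 of 4 general neuron markers were lower in NAc (PFC and NAc medians of the sums 5721 and 2948 CPM), 5 of 5 oligodendrocyte markers higher (5158 and 7955 CPM) and 2 of 2 precursor markers higher (64.5 and 108.2 CPM). Of the GABA neuron markers (Gad1, Gad2, Pvalb, Sst and Vip) 3 were higher and 2 lower (823.8 and 1841 CPM). Against the direction of this sum, Pvalb had medians of 67.4 CPM in PFC and 11.1 CPM in NAc, so the sum is not read as interneuron content. Of the astrocyte markers 1 was higher and 3 lower (1082 and 928.5 CPM). All 4 microglial markers were higher in NAc (233.3 and 277.5 CPM), all 4 endothelial and mural markers lower (181.1 and 111.8 CPM), 3 of 4 choroid plexus markers higher (9.69 and 83.5 CPM) and all 4 hypothalamic markers higher (0.128 and 17.1 CPM). No marker was at 0 in all libraries of a region, 0 markers of these lists passed in any comparison with saline, and their part in the regional differences was not tested.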

How the data were processed

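The mouse counts the authors deposited are raw whole numbers, genes by libraries. The submitters' processing notes list FastQC, cutadapt, STAR, RSEM, Trimmomatic and HISAT2 with the builds GRCm38 and Rnor_6.0, without roles; the counting program and strand setting are not given in the sources used here. Entries for reads given to no gene were left out of library sizes; their median shares were 5.43% outside genes, 0.832% ambiguous, 0.334% of low alignment quality, 0.566% unaligned and 14.7% aligned to several places. Symbols were found for 45143 of 46078 identifiers, and positions come from GENCODE M21.

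Counts were fitted with edgeR 4.0.16 (R 4.3.3, limma 3.58.1), with TMM scaling, its low-count filter, cells of treatment by sex in 1 fit per region, and a fit of both regions. P-values were adjusted by Benjamini-Hochberg over all genes tested, and a gene passed when this was under 0.05. CPM use TMM-scaled library sizes, and log2 CPM a prior count of 2. Alternatives were DESeq2 1.42.0, its size factors, no filter, a replicate block, saline libraries alone, the striatal score as a covariate and left-out libraries; leaving out PFC libraries 10 and 20 or NAc libraries 6 and 25 was chosen after the data were seen.

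Members, lists and comparisons were chosen with earlier results of these data known. The naming rule took the C-type genes, the highest gene of each subfamily, the 5 largest differences between regions in each direction, the 2 smallest p-values per comparison with saline and the smallest for the interaction and each sex comparison. In lists it took up to 3 genes that passed. Genes named outside it were chosen after their values were seen. The striatal score and marker sum were computed without 1 gene of the marker list, which is not reported here. Rat libraries were not analysed here.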

Additional observations from a re-analysis of the deposited data

Results flagged for a closer look

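Dixon's test for a single outlying library was run on the log2 CPM of the 25 named genes and 5 subfamily sums in 240 groups of 6 to 9 libraries, and it singled out 54 values. Chance alone gives about 1 in 20 groups. The genes and sums share libraries, so 1 unusual library is counted many times. A value of -3.96 stands for a count of 0.

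PFC library 10, the shallow library at 2 weeks, gave 22 of the 54. It was lowest, at -3.96 (no read), for Pcdha1, Pcdha5, Pcdha6, Pcdha9, downstream Pcdha11, Pcdhac1, Pcdhb3, Pcdhb6, Pcdhb22, Pcdhga5, Pcdhga7, Pcdhga11 and Pcdhgb6, where the next library lay between -0.46 (Pcdha1) and 4.22 (Pcdhga11). It was also lowest for Pcdhgc3 (4.29), Pcdhgc4 (2.82), Pcdhgc5 (4.34) and the summed Pcdhga (5.44), Pcdhgb (3.72) and C-type genes (6.39). In contrast it was the highest library for Pcdhb9 (5.64), Pcdhga10 (3.77) and Pcdhgb5 (2.89).

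PFC library 20 gave 12, each the lowest value at 24 h. These were Pcdha5 (0.69), Pcdha6 (0.092), Pcdha12 (1.59), Pcdhac1 (0.37), Pcdhac2 (4.10), Pcdhga7 (2.44), Pcdhga11 (3.10), Pcdhgc3 (5.27), and the sums of alternate Pcdha (4.08), Pcdhga (6.13), Pcdhgb (4.18) and C-type genes (7.02). NAc library 25, with low striatal markers, was lowest under chronic morphine for Pcdhgb6 (3.44), Pcdhgc5 (4.77) and the summed Pcdhgb (5.18) and C-type genes (7.46).

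The other 16 values were scattered over libraries. In PFC saline, library 6 was lowest for Pcdha1 (-3.96) and highest for downstream Pcdha11 (2.66), library 1 lowest for Pcdhga5 (2.14), library 2 lowest for Pcdhac1 (1.34) and library 3 lowest for Pcdhgb5 (1.31). Under chronic morphine in PFC, library 27 was lowest for Pcdhb6 (-1.19) and library 28 highest for Pcdhb1 (-2.54). Pcdhb22 was lowest in PFC library 19 at 24 h (2.99), and Pcdhb1 highest in PFC library 9 at 2 weeks (-1.18). In both PFC groups flagged for Pcdhb1 the other libraries had no read. With such ties a lone library with reads is singled out whatever its value, so these flags carry no weight. In NAc saline, library 2 was lowest for Pcdhb22 (3.07), library 3 highest for Pcdhga5 (4.10) and library 7 highest for Pcdha6 (2.28). Pcdha1 was lowest in NAc library 30 under chronic morphine (-2.12). At 2 weeks in NAc, library 13 was lowest for Pcdhga7 (3.58), and library 14 was highest for Pcdhga5 (3.99) and the summed Pcdhga genes (7.90).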

How the results depend on the processing

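Between regions, 44 protocadherin genes passed, and 42 with other size factors, 40 without the low-count filter, 43 with DESeq2, 43 without NAc libraries 6 and 25, and 39 to 44 leaving out each number in turn. The fit on saline libraries alone, with fewer samples, called 23, each among the 44 and in the same direction, and 43 of the 44 kept their sign. With the replicate number as a block 38 passed, all among the 44, and 0 in the interaction. Pcdha3, Pcdhb2, Pcdhb15, Pcdhb19, Pcdhga3 and Pcdhgc3 no longer passed. Numbers were not treated as pairs in the main tests, which ignore any animal shared by the regions. Over 30 numbers the deviations of PFC and NAc libraries correlated at -0.00385 to 0.235 (median 0.0858, 10 over 0.1). The median of 95 other pairs was -0.0218, and 23 NAc libraries correlated best with their own number. Both libraries numbered 27 went against their sex label in the same way. The labels do not say whether libraries of the same number share an animal. Under chronic morphine in NAc the count of 0 became 1 (Pcdhac2) with DESeq2 and 1 with the striatal score as a covariate, and was 0 to 1 leaving out each library; the cause was not tested. Counts for the other comparisons with saline, the interaction and the sexes stayed at 0 under every alternative run, left-out libraries included (0 to 0). The log2 fold change of Pcdhb9 in PFC at 2 weeks turned to -0.030 without library 10, and to -0.033 without libraries 10 and 20 (-0.030 to 0.55 leaving out each library). The slope on the striatal score was called for 32 genes, for 32 with other size factors, 32 without the filter and 27 without the libraries farthest from the median score.

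Depth limits the low genes most: Pcdha4 was tested in no main fit and Pcdhb1 not in the main PFC fit, and in PFC library 10 most members were at 0 with 5182601 counts. In PFC, with library 10 kept, the median SE was 0.33 under chronic morphine, and 43 of 56 intervals lay within a 2-fold change.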
